A study of Mus musculus with 6 samples.

Results

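ER chaperones, foldases and genes of ER-associated degradation (ERAD) were examined in mouse pancreatic islets as a list of 35 named genes. Each gene was linked to 1 of the 39470 loci of the count table by the lengths of its exons and introns taken in order, and 31 of the 35 could be read. The islets came from C57BL/6 mice, an inbred laboratory strain, killed at 14 weeks of age after 8 weeks on a normal diet or a high fat diet. There were 3 libraries per diet, all of total RNA depleted of ribosomal RNA. The study asked which transcripts differ between the diets. Which animals went into each library is not given in the labels, so a p-value speaks only of how far these libraries scatter, and some of that scatter may be technical. Whole islets were sequenced, so that fewer cells of a type and less RNA per cell cannot be told apart.

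Secreted and membrane proteins fold in the endoplasmic reticulum (ER). There the HSP70-type chaperone BiP and the HSP90-type chaperone GRP94 hold unfolded chains, protein disulphide isomerases form and shuffle disulphide bonds, and the lectins calnexin and calreticulin retain glycoproteins until they are folded. Chains that fail are trimmed, passed to a membrane complex built on SEL1L and the ubiquitin ligase HRD1 (Syvn1), pulled out by the ATPase VCP and degraded by the proteasome. A load of unfolded protein activates the sensors IRE1 (Ern1), ATF6 and PERK (Eif2ak3), and the factors XBP1 and cleaved ATF6 then switch on chaperone and ERAD genes. Beta cells make large amounts of proinsulin, which needs disulphide bonds, and depend on this system.

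Many promoters of the system carry the ER stress response element (ERSE), which reads CCAAT, then 9 bases of any kind, then CCACG, and is known as a binding site of ATF6 and XBP1 together with the general factor NF-Y. A shorter form, ERSE-II, reads ATTGG, 1 base of any kind and CCACG. RefSeq promoter windows of 300 bases, from 250 before to 50 after the annotated start on build GRCm38.p6, were at hand for 30 of the 35 genes. The exceptions were Atf6, Hyou1, Hspa13, Derl1 and Manf. Searched on both strands for an exact match, ERSE stood in the windows of 8 of the 30 genes (26.7%). It stood in 39 of all 32851 windows (0.119%), which belong to 37 of 27025 genes. The element was known beforehand from promoters of this system, so these counts are a description and not a test. The 8 were Hspa5, Hsp90b1 with 2 sites, Dnajc3, Creld2, Pdia6, Calr, Canx and Syvn1. ERSE-II stood in the windows of Herpud1 and Dnajb11, and in 0.037% of all windows. A further element, the UPRE (TGACGTGG), stood in those of Vcp and Txndc5 and in 0.676% of all windows. The ERSE and ERSE-II letters share the CCACG end, and none of the listed genes held both. The stretches around the ERSE or ERSE-II sites of the 8 genes with usable counts are shown so that the shared letters, and the bases between them that differ, can be compared. They are given 5′ to 3′ along the gene with the matched letters in capitals; in Calr, Creld2 and the second site of Hsp90b1 the match is on the opposite strand and so reads as its reverse complement, and in Dnajb11 the ERSE-II site lies 7 to 17 bases after the start.
Hspa5, chr2:34772005-34772063, plus strand: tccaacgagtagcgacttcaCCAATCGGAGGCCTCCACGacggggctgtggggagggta
Hsp90b1, chr10:86705513-86705676, minus strand: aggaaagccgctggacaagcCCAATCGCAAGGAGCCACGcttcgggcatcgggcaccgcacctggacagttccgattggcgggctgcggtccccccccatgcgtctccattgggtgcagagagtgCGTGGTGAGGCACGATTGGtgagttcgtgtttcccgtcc
Dnajc3, chr14:118937807-118937865, plus strand: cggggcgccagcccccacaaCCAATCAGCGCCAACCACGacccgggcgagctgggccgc
Creld2, chr15:88819500-88819558, plus strand: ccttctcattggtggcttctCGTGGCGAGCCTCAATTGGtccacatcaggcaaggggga
Pdia6, chr12:17266471-17266529, plus strand: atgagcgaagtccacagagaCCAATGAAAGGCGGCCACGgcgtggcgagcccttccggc
Calr, chr8:84847055-84847113, minus strand: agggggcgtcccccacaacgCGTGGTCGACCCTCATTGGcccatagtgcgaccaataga
Canx, chr11:50325780-50325838, minus strand: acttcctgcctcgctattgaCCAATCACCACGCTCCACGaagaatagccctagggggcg
Dnajb11, chr16:22857844-22857870, plus strand: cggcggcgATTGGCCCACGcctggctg
A match describes letters only, and whether a factor was bound was not measured here.

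The libraries held between 104657337 and 135353777 reads counted to loci. Levels are in CPM, read counts scaled to a common library total, after TMM normalisation. The TMM factors, by which library totals are multiplied, were 1.05 to 1.10 in the normal diet libraries and 0.909 to 0.958 in the high fat libraries. This raises every high fat level relative to the normal diet, so the directions and sizes given here depend on that scaling. High fat library 3 lay away from its group, at 59.4 on the second principal component against -32.4 and -25.5 for high fat libraries 1 and 2. For the number of genes past the test and for some single genes, results are also given without it. The columns of the count table name the high fat libraries only by the abbreviation HDR, so every direction depends on reading HDR as the high fat diet. The tissue label fitted the hormone genes, with Iapp at 35730 CPM on the normal diet and Gcg and the other alpha-cell markers summing to between 18500 and 25460 CPM.

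The 4 genes that could not be read were all of ERAD. Herpud1, Derl1 and Edem2 had 100% of their exonic bases shared with a locus on the opposite strand and 0 reads in all 6 libraries. All 548 loci of the table with this property had 0 reads. Syvn1 shared 97.9% of its bases with the Mrpl49 locus and stood between 0.062 and 0.12 CPM. Counting thus left out reads in shared bases, and these values say nothing about the expression of the 4 genes. The same limit touched Xbp1, with 69.7% of its bases shared with the Ccdc117 locus, and Ppib, with 54.1% shared with the Snx22 locus, so only their remaining bases were measured. The Edem1 locus also spans Arl8b, a lysosomal GTPase gene, whose reads are in its count.

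Of the 31 genes read, 15 rose under the high fat diet and 0 fell by edgeR's quasi-likelihood test at an adjusted p of 0.05 over all 23983 loci tested, where 5.95% of all loci were called higher and 4.86% lower; under cyclic loess normalisation 0 of the 31 passed in either direction. The changes were small. Those called higher stood at 1.22 to 1.51 times their normal diet level. The median log2 fold change of the 31 was 0.38, against -0.050 over all loci tested. In 20 of the 31 every high fat library lay above every normal diet library, as in 18.8% of all loci. The reverse order held in 0 of the 31 and in 20.4% of all loci. At an unadjusted p under 0.05 there were 25 of 31, all higher. The share of all loci past that threshold is not given here, for this count or for the other counts at an unadjusted p. The calls needed all of the normal diet libraries and high fat libraries 1 and 2. Without any 1 of those 5, 0 of the 31 passed with medians of 0.31 to 0.37, and the fits without a normal diet library called 0 loci of any kind. Without high fat library 3, 26 passed with a median of 0.44, in a fit that called 3075 loci higher and 1960 lower. With all 6 libraries 1426 loci were called higher and 1165 lower, so calls rose over the whole table as well.

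Abundant loci in general were higher under the high fat diet in these libraries. Of the 13896 loci at or above the lowest mean level among the 31 genes, 9.70% were called higher and 4.75% lower, and 29.5% had every high fat library above every normal diet library. That lowest level was 1.44 CPM, from Xbp1, which was counted on its unshared bases alone. Ppib, the next lowest, averaged 43.1 CPM on the normal diet, so these shares are not matched to the level of the other genes. The 31 genes had a median level of 405 CPM. Of the 272 loci at or above that level, a limit chosen after the data were seen, 37.5% were called higher and 1.10% lower, with a median log2 fold change of 0.29. Of the 16 listed genes at or above it, 11 were called higher, with a median of 0.41. Every high fat library lay above every normal diet library in 59.9% of these 272 loci. Cyclic loess, which removes change that follows abundance, brought the median of the 272 loci to -0.0003 and that of the 31 genes to 0.11, with 23 of the 31 above 0.

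**Figure D1:**
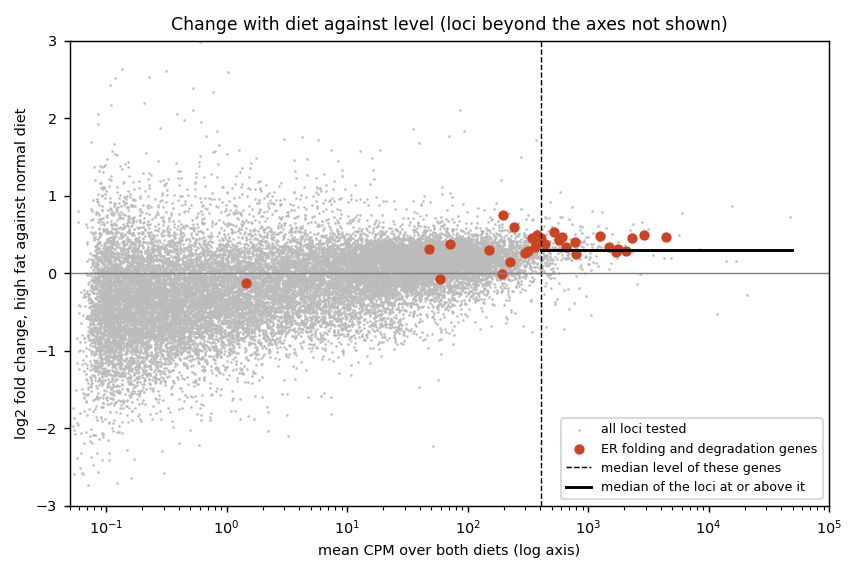
Log2 fold change of high fat against normal diet (y axis) for each locus tested, against its mean CPM over both diets on a log axis (x axis), with the 31 ER genes in red. The dashed line marks their median level of 405 CPM and the solid line the median log2 fold change, 0.29, of the 272 loci at or above it; most red points lie at or above that line.

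The HSP70 and HSP90 chaperones with their co-chaperones had 8 of 10 genes higher by the test, 8 of 10 with groups that did not overlap, and a median log2 fold change of 0.47. Hspa5, which encodes BiP, the main ER chaperone, and lies in build mm9 at chr2:34627610-34632049 on the plus strand, stood at 3650, 3934 and 3663 CPM in normal diet libraries 1, 2 and 3 and at 5404, 5499 and 4664 CPM in high fat libraries 1, 2 and 3. The diets did not overlap, and high fat library 3 was the lowest of its group. The log2 fold change was 0.47 (SE 0.089, edgeR adjusted p = 0.026). Hsp90b1, which encodes GRP94, was at 1870, 2158 and 1883 CPM against 2803, 2593 and 2706 CPM, with the 3 high fat libraries close together. Its log2 fold change was 0.45 (SE 0.085, adjusted p = 0.025), with 15.0% of its bases shared with another locus. Hspa13, an HSP70-like ATPase of microsomes, rose by 0.46 on the log2 scale, from 511 ± 47 to 704 ± 50 CPM (SD, n = 3 each). Hyou1, an exchange factor of BiP, was at 1465, 1650 and 1599 CPM against 2191, 2050 and 1601 CPM. High fat library 3 lay among the normal diet libraries, and the gene did not pass (log2 fold change 0.31, SE 0.12, adjusted p = 0.12).

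J-domain proteins stimulate the ATPase of BiP and bring it its clients. All 4 listed rose. Dnajb11 (ERdj3), a secreted and luminal co-chaperone at chr16:22857918-22879707 in mm9, was at 194, 209 and 178 CPM on the normal diet and 300.4, 323 and 251 CPM on the high fat diet. No library of one diet entered the range of the other. Its log2 fold change of 0.59 (SE 0.11, adjusted p = 0.024) was the highest among the genes that passed. Dnajc3 (P58IPK) was at 1031, 1120 and 1025 CPM against 1477, 1558 and 1397 CPM, a log2 fold change of 0.48 (SE 0.080) with the smallest adjusted p of the list, 0.020. Dnajb9 (ERdj4) went from 342 ± 45 to 468 ± 14 CPM, and Dnajc10 (ERdj5), a disulphide reductase that prepares chains for export, from 291 ± 18 to 398 ± 17 CPM, both at 0.45. Manf, a secreted ER stress protein that binds BiP, was at 416, 453 and 405 CPM against 636, 689 and 515 CPM, at 0.53 (SE 0.11, adjusted p = 0.030). Sdf2l1, which forms a complex with J-domain co-chaperones, was at 285, 294 and 363 CPM against 463, 571 and 292 CPM. Only high fat libraries 1 and 2 were above the normal diet range, and the gene did not pass (0.49, SE 0.21, adjusted p = 0.15).

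**Figure D2:**
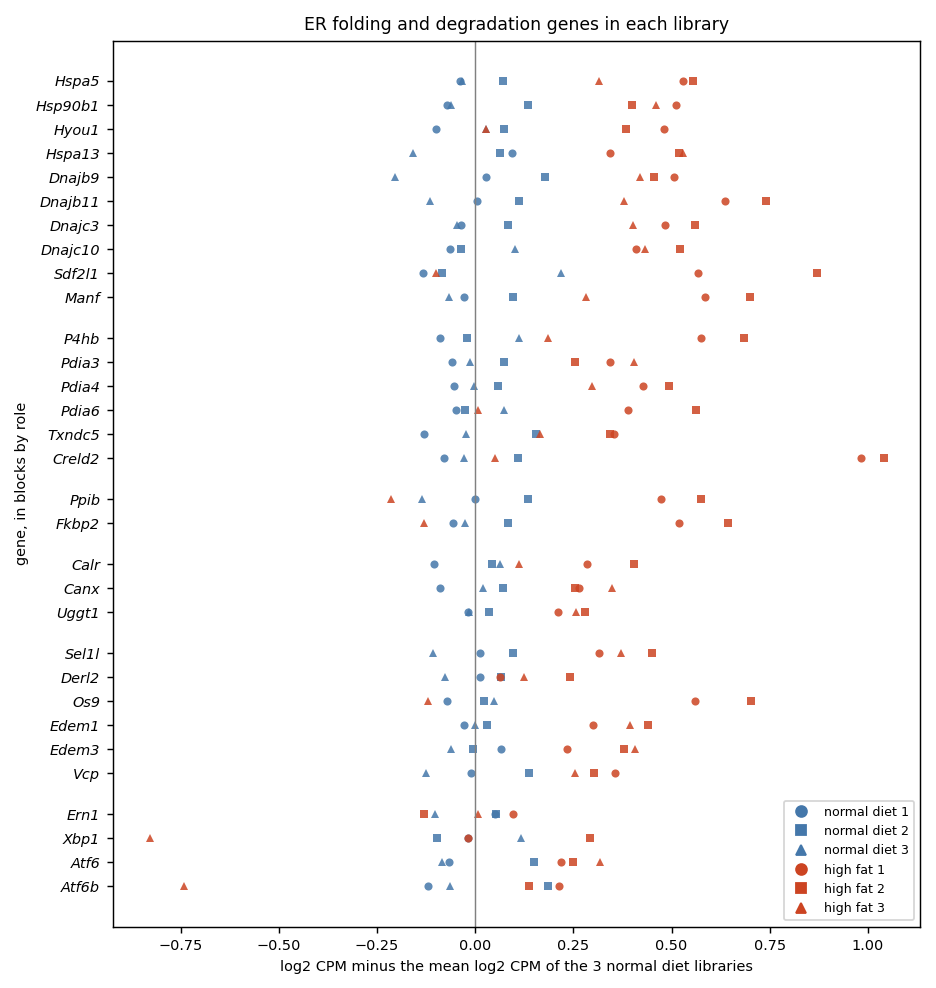
Log2 CPM of each of the 31 genes in each library minus its mean over the 3 normal diet libraries (x axis), with genes in rows grouped by role; blue symbols are normal diet and red symbols high fat libraries. In 20 genes the red symbols all lie to the right of the blue ones, and the red triangles of high fat library 3 lie far to the left in Xbp1 and Atf6b, among the blue symbols in Creld2 and Sdf2l1, and left of all blue symbols in Fkbp2, Ppib and Os9.

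Of the 6 disulphide foldase genes 3 rose. P4hb, which encodes protein disulphide isomerase itself, was at 2267, 2378 and 2610 CPM against 3597, 3876 and 2744 CPM. The groups did not overlap, but high fat library 3 lay just above the highest normal diet library. The log2 fold change was 0.49 (SE 0.13, adjusted p = 0.045), and 0.63 without high fat library 3. With 1 library left out at a time it ranged from 0.40 to 0.63. Pdia4 (ERp72) rose from 676 ± 26 to 897 ± 62 CPM, at 0.41, and Pdia3 (ERp57), which works with the lectins, from 579 ± 27 to 730 ± 38 CPM, at 0.33. Pdia6, which also binds BiP, was at 1286, 1305 and 1399 CPM against 1742, 1962 and 1336 CPM and did not pass (0.34, SE 0.13, adjusted p = 0.12). Txndc5 had non-overlapping groups at 286 ± 29 and 349 ± 25 CPM but an adjusted p of 0.086. Creld2, a secreted ER stress protein with disulphide exchange activity, had the highest fitted change of the 31 and did not pass. Its locus is at chr15:88650076-88657111 in mm9. It was at 140, 159 and 145 CPM against 292, 304 and 153 CPM. High fat libraries 1 and 2 were near 300 CPM while high fat library 3 lay within the normal diet range (log2 fold change 0.75, SE 0.22, adjusted p = 0.060). Without that library the change was 1.02 (adjusted p = 0.00033), the highest of a range from 0.60 to 1.02 with 1 library left out at a time. With no filter on low counts the gene just passed (adjusted p = 0.049).

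Neither prolyl isomerase, the enzymes that turn proline bonds, passed. Fkbp2 was at 59.3, 65.3 and 60.5 CPM against 88.5, 96.4 and 56.3 CPM, with high fat library 3 below all normal diet libraries (0.38, SE 0.18, adjusted p = 0.17). Ppib (cyclophilin B), measured on its unshared bases, also had high fat library 3 below all normal diet libraries, at 43.0, 47.2 and 39.1 CPM against 59.7, 64.0 and 37.0 CPM (0.31, SE 0.19, adjusted p = 0.28). Without high fat library 3 the change in Ppib was 0.53 and passed (adjusted p = 0.0058). With 1 library left out at a time the change in Ppib ranged from 0.17 to 0.53.

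The genes of the lectin cycle had smaller differences. Canx, the membrane lectin calnexin, was at 1737, 1940 and 1872 CPM against 2218, 2202 and 2352 CPM. It passed with a log2 fold change of 0.29 (SE 0.078) at an adjusted p of 0.049, close to the threshold, and missed it with no filter on low counts (adjusted p = 0.054). Its soluble partner Calr had 0.27 (SE 0.096, adjusted p = 0.095), from 1544 ± 97 to 1863 ± 188 CPM. Uggt1, the sensor that re-tags unfolded glycoproteins with glucose, was at 711, 738 and 713 CPM against 834, 875 and 861 CPM. Its groups were tight and did not overlap, but it missed the threshold (0.25, SE 0.070, adjusted p = 0.054). Under cyclic loess Canx, Calr and Uggt1 turned to -0.053, -0.064 and -0.040.

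Of the 6 ERAD genes that could be read 3 rose. Sel1l, the scaffold of the HRD1 complex, was at 323, 342 and 297 CPM against 399, 437 and 414 CPM, at 0.38 (SE 0.083, adjusted p = 0.032). The Edem1 locus was at 377, 393 and 384 CPM against 473, 522 and 505 CPM, at 0.38 (SE 0.074, adjusted p = 0.026). Edem3, like Edem1 a mannosidase-type protein that marks glycoproteins for disposal, rose from 322 ± 14 to 408 ± 26 CPM, at 0.34. Vcp, the ATPase that extracts substrates, went from 134 ± 12 to 165 ± 5.8 CPM with no overlap and did not pass (0.30, adjusted p = 0.058). Os9, a lectin that delivers trimmed glycoproteins to SEL1L, was at 468, 499.5 and 509 CPM against 724, 801 and 453 CPM. High fat library 3 was the lowest of all 6 libraries, and the gene did not pass (0.42, SE 0.18, adjusted p = 0.15). Derl2, a channel-like membrane protein, had overlapping groups at 213 ± 11 and 235 ± 15 CPM (0.14, adjusted p = 0.26).

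None of the 4 sensor and factor genes passed, and 1 of them, Atf6, had groups that did not overlap. Atf6 was at 262, 305 and 259 CPM against 320, 326 and 342 CPM (0.26, SE 0.087, adjusted p = 0.084). Ern1, which encodes IRE1, was at 200, 200 and 180 CPM against 206, 176 and 194 CPM, a log2 fold change of -0.0088 (SE 0.088, adjusted p = 0.96) whose sign turned under 5 of the alternative settings. Atf6b, a paralogue of Atf6, was at 55.4, 68.4 and 57.6 CPM against 69.8, 66.2 and 36.0 CPM (-0.077, SE 0.22, adjusted p = 0.84). High fat library 3 was far below the rest, and without it the change was 0.17. Xbp1 was counted at 1.47, 1.40 and 1.62 CPM against 1.47, 1.83 and 0.833 CPM, from 108 to 231 reads per library on its 820 unshared bases, with no call (adjusted p = 0.78). The other 1882 exonic bases of Xbp1 were not counted, so neither the level nor the change of the whole gene can be read here. The counts are per locus, so splicing of Xbp1 by IRE1 was not measured.

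**Figure D3:**
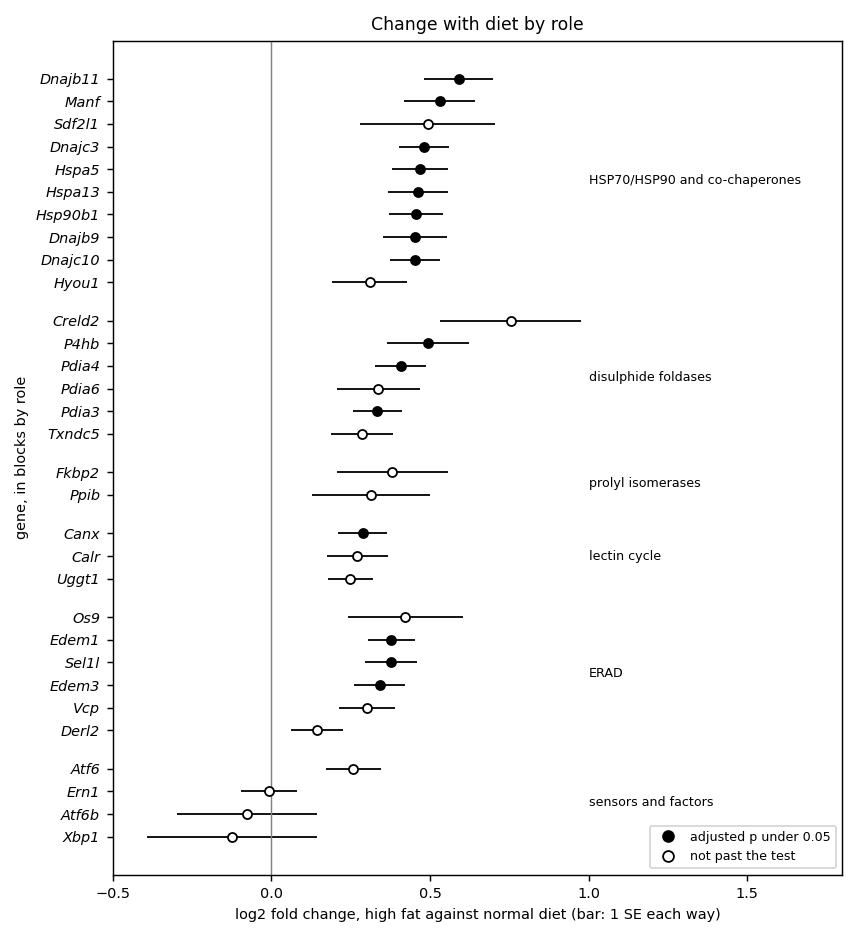
Log2 fold change of high fat against normal diet (x axis) for the 31 genes, grouped by role, with bars of 1 SE each way; filled points passed edgeR's test at an adjusted p of 0.05. The chaperone block has 8 of 10 filled points, and the sensor block has 0 of 4, with 3 of its points at or left of 0. Of these 3, Xbp1 was counted on its unshared bases alone.

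Levels were also compared per length, as CPM per kilobase of unshared exonic bases, averaged over the 6 libraries. Hspa5 was the highest at 1708, followed by P4hb at 1146, Hsp90b1 at 996 and Calr at 877. Pdia6 at 525 and Canx at 479 came next, then Hyou1 at 345 and Sdf2l1 at 341. The ERAD genes that could be read lay below these, from Os9 at 139 down to Edem3 at 37.0, with Vcp at 45.1. Other folding genes lay in that same range, such as Fkbp2 at 107, Txndc5 at 101, Dnajb11 at 75.0 and Uggt1 at 74.0. Others lay above it, such as Pdia4 at 309 and Dnajc3 at 243. Of the sensor and factor genes Atf6 was at 39.1, Ern1 at 15.2 and Atf6b at 12.7. Xbp1 gave 1.75 on its unshared bases, which is not a level for the whole gene and does not rank it. No test was made between genes.

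High fat library 3 decided most of the overlaps between diets. Of the 11 genes whose diets overlapped, 10 had high fat library 3 at or below the highest normal diet library, with Derl2 the exception. In 7 of the 11 (Hyou1, Sdf2l1, Pdia6, Creld2, Ppib, Fkbp2 and Os9) high fat libraries 1 and 2 were both above every normal diet library. With 1 library left out at a time, Hyou1 ranged from 0.22 to 0.44 on the log2 scale and Sdf2l1 from 0.27 to 0.72. Pdia6 ranged from 0.22 to 0.48, Fkbp2 from 0.24 to 0.59 and Os9 from 0.27 to 0.64. The split into overlapping and separate genes thus rests on this library, so its level was set against properties of the genes over all 31 instead. Across the 31 genes the log2 difference of high fat library 3 from the mean of high fat libraries 1 and 2 had a Spearman rho of -0.78 with the GC content of the longest coding reference transcript and 0.74 with its length; across 13554 coding loci these were -0.63 and 0.25. The points share the same 3 libraries, GC content and length go together, and their part in the result was not tested. The log2 fold change of the diets had a rho of -0.04 with GC content over the 31 genes and -0.38 over the coding loci.

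**Figure D4:**
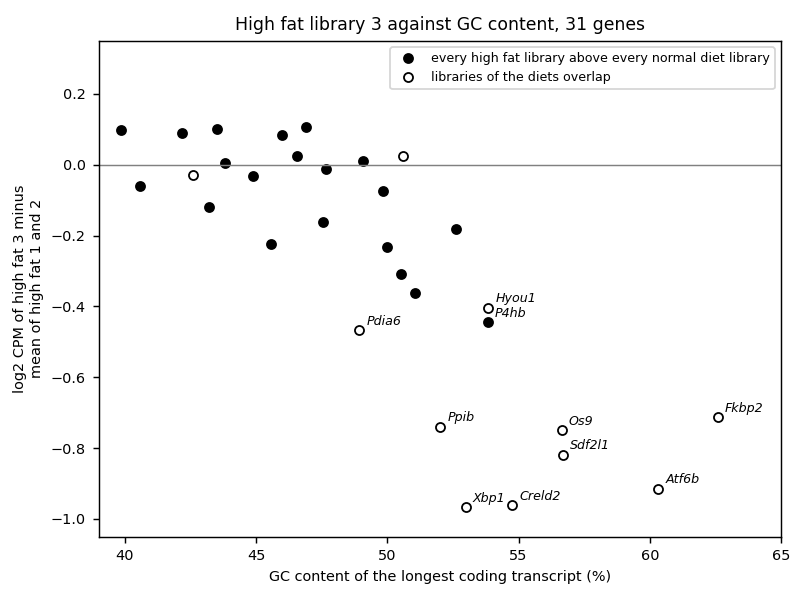
Log2 CPM of high fat library 3 minus the mean of high fat libraries 1 and 2 (y axis) against the GC content of the longest coding reference transcript in percent (x axis) for the 31 genes; open points are the 11 genes whose diets overlap. The points fall from near 0 at low GC content to between -0.71 and -0.97 for 7 genes, among them Os9, Fkbp2, Sdf2l1, Atf6b, Creld2 and Xbp1.

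The genes that carry ERSE included 4 of 7 called higher (Hspa5, Hsp90b1, Dnajc3 and Canx), with a median log2 fold change of 0.45. The 20 read genes with a promoter window and no ERSE had 9 called higher and a median of 0.36. This is a description of small groups, and no difference between them was tested. Apart from Creld2, the ERSE genes stood between 1058 CPM (Dnajc3) and 3749 CPM (Hspa5) on the normal diet. The genes without it included lower ones, such as Atf6b at 60.5 CPM. Level was thus not held equal between the groups, and 37.5% of the 272 loci at or above 405 CPM were called higher. Creld2, Pdia6 and Calr hold the element and did not pass, and Dnajb11, the highest of those that passed, holds ERSE-II.

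Other genes of the pathway were counted from lists chosen by function. Of 32 genes tested from a list of further ER foldases, chaperones and related genes, 8 rose and 0 fell, with a median of 0.32. Serp1, which encodes the translocon-linked protein RAMP4, rose from 1116 ± 46 to 1675 ± 88 CPM, at 0.59 (adjusted p = 0.014). Nucb2, which encodes the precursor of nesfatin-1, went from 380 ± 16 to 783 ± 171 CPM, at 1.04 (adjusted p = 0.015). Tmx1, a membrane-bound thioredoxin-like oxidoreductase, and Dnajc1, a J-domain protein of the ER membrane, rose by 0.47 and 0.42. Of 28 further ERAD genes 6 rose and 0 fell, with a median of 0.24. Erlec1, an Os9-like lectin, led them at 0.67 (65.7 ± 2.4 to 104 ± 4.7 CPM, adjusted p = 0.011). Ubxn4, a VCP adaptor of the ER membrane, Ngly1, which strips N-glycans from exported proteins, and Selk, a selenoprotein of the ER membrane, rose by 0.41, 0.42 and 0.37. Of 29 proteasome subunits 15 rose and 0 fell, with a median of 0.30. Psmb7, Psmd12, Psma4 and Psma1 stood at 0.41, 0.37, 0.37 and 0.34. Every high fat library lay above every normal diet library in 20 of the 29, as in 20 of the 31 ER genes. Over all loci tested 5.95% were called higher and 4.86% lower, and of the 272 loci at or above 405 CPM 37.5% and 1.10%. Neither share is matched to the level of these lists or of those in the next paragraph.

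The sensor PERK and the genes downstream of it were mixed. Of 8 other sensors and their proteases tested, 2 rose. These were Eif2ak3, which encodes PERK, from 124 ± 3.6 to 153 ± 9.6 CPM (0.31, adjusted p = 0.043), and Creb3, an ER-bound transcription factor, at 0.40. Of 14 genes of the PERK arm 3 rose and 1 fell, with a median of -0.031. Nupr1, a stress-induced nuclear protein, went from 50.5 ± 7.5 to 99.5 ± 17 CPM (0.98, adjusted p = 0.019), and Asns, asparagine synthetase, and Eif2s1, the target of PERK, rose by 0.41 and 0.35. Atf3, a stress-induced factor, fell by 1.48 on the log2 scale, from 58.3 ± 22 to 21.0 ± 9.2 CPM (adjusted p = 0.036). These lists share the libraries and the limits given above, and edgeR's quasi-likelihood test was used throughout.

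Markers of other cells also differed between the libraries. Acinar cells, which are rich in ER chaperones, left markers that summed over 28 loci to 3887, 7492 and 6532 CPM in normal diet libraries 1, 2 and 3 and to 5653, 12110 and 9523 CPM in high fat libraries 1, 2 and 3. The diets overlapped. None of the 28 was at 0. Of 27 tested 2 rose, Try5 and Cpb2. Cpb2 was at 4.74, 4.71 and 4.45 CPM against 6.80, 6.42 and 8.09 CPM, not in the library order of the acinar sum, and may not mark acinar cells. Of the 27, 25 had a log2 fold change above 0 and 15 stood over 1.5-fold, with a median of 0.59, above that of the ER genes. The libraries did not keep 1 order in both lists. High fat library 2 had the highest acinar sum and was the highest library for 19 of the 31 ER genes, and normal diet library 1 had the lowest sum and was the lowest for 15. High fat library 1 had a lower acinar sum than normal diet libraries 2 and 3, while 30 of the 31 ER genes lay above their normal diet mean in it. High fat library 3 had the second highest acinar sum and was the lowest within its diet for 19 ER genes. With the acinar level as a covariate the median of the 31 genes was 0.33 and 0 passed, in a fit that called 0 loci of any kind.

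Among endocrine cells, the sum over 9 beta-cell loci, most of it Iapp, was 62180 to 72590 CPM on the normal diet and 89020 to 108100 CPM on the high fat diet, with 3 of 9 higher (Iapp, Pcsk1 and G6pc2). The alpha-cell sum over 6 loci was 23050 to 25460 CPM against 18500 to 22030 CPM, with Gc higher and Irx1, Irx2 and Slc7a2 lower. Delta-cell and PP-cell markers summed to 3031 to 4480 CPM against 2552 to 3930 CPM, with 0 of 5 called by edgeR and 3 of 5 at an unadjusted p under 0.05. The delta-cell hormone gene Sst could not be linked to a locus. Most of the sum was Ppy and Pyy, at 2657 and 896 CPM on the normal diet, so it says little of delta cells. Of the non-endocrine cells, Schwann cell markers summed to 22.6 to 24.1 CPM against 15.1 to 20.6 CPM, with 3 of 6 lower (Sox10, Ngfr and Gfap) and a median of -0.80. Stromal markers summed to 359 to 456 CPM against 435 to 575 CPM, with Rgs5 and Acta2 higher and Thy1 lower of 9. Macrophage markers summed to 52.5 to 59.9 CPM against 41.8 to 51.6 CPM, with Csf1r lower of 4. Endothelial markers summed to 381 to 446 CPM against 387 to 469 CPM, with 0 of 7 called and 1 at an unadjusted p under 0.05. Ductal markers summed to 39.5 to 46.2 CPM against 44.1 to 63.5 CPM, with 0 of 6 called and 1 at an unadjusted p under 0.05. Most of the ductal sum was Spp1, at 38.1 and 48.7 CPM. Of the 6 ductal genes 2 had a log2 fold change above 0, with a median of -0.15. Plasma and lymphoid markers, of cells that are also rich in ER, summed to 2.65 to 3.48 CPM over all libraries. The part of these shifts in the result was not tested.

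**Figure D5:**
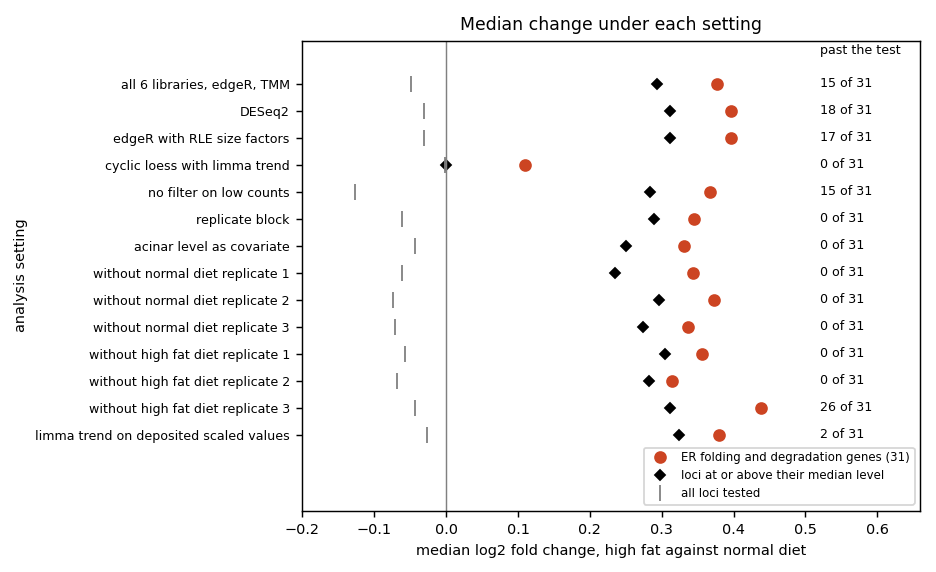
Median log2 fold change (x axis) of the 31 ER genes (circles), of the 272 loci at or above their median level (diamonds) and of all loci tested (ticks), under each analysis setting (y axis), with the number of the 31 past the test higher. The circles lie between 0.31 and 0.44 except under cyclic loess, at 0.11, while the number past the test ranges from 0 to 26.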

How the data were processed

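Total RNA of islets was depleted of ribosomal RNA, made into libraries with a stranded Illumina kit and read from both ends, per the labels' protocols. The submitters' processing notes name build mm9 and the tools edgeR, HTSeq (0.5.4p3), TopHat2 (2.0.8) and Cufflinks (2.1.1); their order and settings, and the use of strand in counting, are not given in the sources used here. The authors deposited raw read counts for 39470 loci, a signal table that is the counts times 1 constant per library (0.906 to 1.10; 100% of its values gave back whole reads within 0.001, which are the deposited counts, so a count test on them is the same test), and the exon positions of 98161 transcripts.

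The positions carry no symbols. Genes were linked from GENCODE M21 by ordered exon and intron lengths on the same chromosome and strand, each in its own build, with no coordinates converted; loci of 2 exons also had to agree within 40 bases in each end exon. Genes with over 90% of exonic bases shared with another locus were not used. Of 226 other listed genes 201 were used. The genes, lists and settings were chosen with earlier results of these data known. All 35 genes are named; of each other pathway list, up to 4 of those called, taken by adjusted p.

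Loci passing filterByExpr (23983) were tested in R 4.3.3 with edgeR 4.0.16 (TMM, quasi-likelihood, diet alone, two-sided) and Benjamini-Hochberg adjustment over all of them at 0.05. An SE was obtained by dividing the size of the log2 fold change by the root of its F statistic. Alternatives used DESeq2 1.42.0 and limma 3.58.1. The script was tested on simulated counts of this comparison (23452 loci), where it recovered 35.8% of the changes made at 1.5-fold. Most changes described here are smaller. Of the 158 loci called in that simulation, 14 were false calls.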

Additional observations from a re-analysis of the deposited data

How the results depend on the processing

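The median log2 fold change of the 31 genes was above 0 under every setting run (0.11 to 0.44), whereas the number past the test was not stable. All settings except cyclic loess scale each library by 1 factor, so their medians are not independent of each other. Against 15 with all libraries, 18 genes were higher by DESeq2, 17 with RLE size factors and 15 with no filter, where Creld2 passed (adjusted p = 0.049) and Canx did not (0.054), and 14 of the 28 with at most 10% of bases shared. Leaving out 1 library gave 0 to 26. Under cyclic loess 0 passed and the median was 0.11, with 3 higher and 1 lower at an unadjusted p under 0.05. With the acinar covariate 0 passed (18 at an unadjusted p under 0.05), and 2 (Dnajb11 and Creld2) passed when limma was run on log2 of the scaled table plus 1. In none of the fits was a listed gene called lower.

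With the replicate number as a block 0 passed and the median was 0.35, with 23 at an unadjusted p under 0.05. The numbers do not pair the libraries: the deviations of same-numbered libraries correlated at -0.075, 0.075 and -0.014, and only high fat library 2 correlated best with its own number.

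Signs turned for 9 genes, none past the test after the turn. Under cyclic loess Hyou1 stood at -0.034, Pdia6 at -0.0040, Calr at -0.064, Canx at -0.053, Uggt1 at -0.040, Derl2 at -0.074 and Xbp1 at 0.014. Ern1 stood at 0.010 by DESeq2 and with RLE size factors, 0.047 with the acinar covariate, 0.058 without high fat library 2 and 0.026 on the scaled values. Without high fat library 3 Xbp1 stood at 0.15 and Atf6b at 0.17, and without normal diet library 2 Atf6b stood at 0.0040. With 1 library left out at a time Ern1 ranged from -0.079 to 0.058, Xbp1 from -0.37 to 0.15 and Atf6b from -0.24 to 0.17. The cause of these turns was not tested. The genes that passed had at least 22898 reads per library, and Xbp1 108 to 231.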
